A study of Rattus norvegicus with 47 samples.

Results

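The 8 kidneys described here came from rats that had carried a pellet of tantalum (Ta) for 12 months. They are the tantalum columns of a count table and were chosen by label alone, 8 of the 47 libraries of the series. The series text calls tantalum an inert metal, against which pellets of other metals were set; none of those other kidneys is used here. All 8 rats share the pellet, the time and the tissue. There is no unimplanted or sham-operated kidney in this group, so the values below are those of pellet-bearing animals and not of untouched ones. Each library has an animal number of its own in the labels, from 73 to 80. The labels give no strain, sex, age, diet, hour of collection, kidney side or region, and no clear statement of the implantation site. Total RNA of homogenised kidney tissue was extracted with TRIzol, treated with DNase and made into libraries by a sequencing company.

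The kidney filters blood in glomeruli, whose podocytes hold the filter, and recovers most of the filtrate in the proximal tubule, first in its S1 and S2 segments and then in the straight S3 segment. The thin limbs and the thick ascending limb of the loop of Henle, the distal convoluted and connecting tubule and the collecting duct then set the salt, acid and water content of urine. Proximal tubule and thick ascending limb are packed with mitochondria that feed active transport. Tubule cells under stress are known to switch on a common set of genes, among them Havcr1 (kidney injury molecule), Lcn2 (lipocalin) and Spp1 (osteopontin), and to lose transporters of the mature segment.

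The 8 libraries held 23259750 to 35775818 counts on genes (median 26113514), and 14981 to 16604 genes had at least 1 count. Levels are given in CPM, counts per 1000000 counts after scaling each library by its TMM factor, so that 1 CPM stood for 21.0 to 35.3 counts; at the mean depth, counting error alone gave a coefficient of variation (CV) of 0.193 at 1 CPM and less at higher levels. Replicate 4 stood apart from the other 7. Its correlation with the mean of the others over log2 CPM was 0.948, while the others lay between 0.973 and 0.987, and the first principal component, with 40.0% of the variance, placed it at 65.1 and every other library between -27.5 and 20.7. Its total of 24002836 counts and its mitochondrial share of 18.8% lay inside the range of the other 7 libraries. No label sets it apart, and counts of variable genes that changed by over 1.5 times when it was left out are given both ways below. The spread of a gene over the 8 kidneys is given as its biological CV, the CV of CPM with counting error taken off. A value of at least 0.5 is called variable and was met by 1473 of 13649 genes (10.8%), and a value of at most 0.1 is called steady and was met by 2112 genes (15.5%). The measure weighs high values more than low ones. A gene low in 1 kidney alone and even in the other 7 stays under 0.5, however low it is. Of the 13649 genes 25.7% were highest and 22.0% lowest in replicate 4. Counts of list members below are to be read against these shares.

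The tissue label was checked against defining markers. Transporters of every nephron segment were present in all 8 libraries. Of 6 skeletal muscle markers none reached a mean of 1 CPM. The adrenal marker Cyp11a1, which starts steroid synthesis, had 0.765 to 8.82 CPM, and Star and Cyp11b1 stayed under 1 CPM; the fat cell hormone Adipoq had 6.5 to 13.6 CPM. The Y-linked genes Eif2s3y (58 to 89.5 CPM), Kdm5d (29.3 to 43.6 CPM) and Uty (10.7 to 16.6 CPM) were counted in all 8 kidneys, while Ddx3y and Usp9y stayed under 1 CPM on average.

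Reads were concentrated on few genes. COX1, the mitochondrially encoded core subunit of cytochrome c oxidase, took 6.998% ± 0.817 (SD, n = 8) of each library total. The first 10 genes took 19.8% ± 2.43, the first 100 took 35% ± 2.38, and the first 1000 took 61.5% ± 2.06. On average 441 ± 78.8 genes held 50% of the counts. That number was lowest in replicate 7 (293 genes) and highest in replicate 4 (534 genes). Of 22525 genes in the table, 4349 had no count in any of the 8 libraries, 13649 reached a mean of 1 CPM, 1679 reached 100 CPM and 75 reached 1000 CPM.

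**Figure D1:**
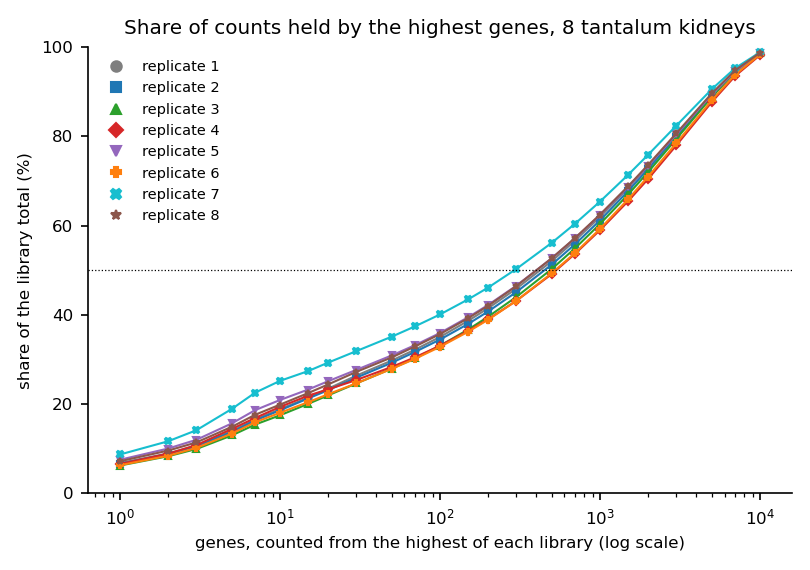
Share of each library total (%) held by its highest genes, against the number of genes on a log axis, with 1 line per tantalum kidney and a dotted line at 50%. Replicate 7 lies above the others throughout, with 25.2% in its first 10 genes, and the other 7 lie close together, between 17.5% and 20.9% at that point.

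The 13 protein-coding genes of the mitochondrial genome together took 19.5% ± 2.52 of the counts, and the first 9 places by reads were all theirs. In 7 libraries the share lay between 17.2% and 20.8%, and in replicate 7 it was 25.1%. COX1 itself had a lowest value of 59931, a median of 67292 and a highest of 96292 CPM. Next came COX3 (23566 ± 4173 CPM) and CYTB of the cytochrome bc1 complex (18812 ± 3583 CPM). All 13 of these genes kept a biological CV under 0.5, and the 3 oxidase subunits and CYTB were each highest in replicate 7. Without mitochondrially encoded genes in the total, the first gene held only 0.809% and 50% of the counts spread over 881 genes.

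Counts were not divided by transcript length, so the order of nuclear genes below is an order by reads received and does not rank transcript numbers. The elongation factor gene Eef1a1 had 5286 ± 381 CPM. Several genes of glutathione metabolism stood near the top. Gclc, the catalytic subunit of the enzyme that limits glutathione synthesis, had 1120.1 to 7444 CPM with a median of 5046; it held place 12 by mean, but its place within single libraries ran from 9 to 52. The secreted peroxidase Gpx3 had 4891 ± 977 CPM, and the brush border enzyme Ggt1, which breaks down extracellular glutathione, had 2412 ± 589 CPM.

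Other high nuclear genes were products of tubule cells. Hao2, an oxidase of hydroxy acids, had 4326 ± 974 CPM and Miox, which opens the ring of myo-inositol, had 3388 ± 686 CPM. The ferritin genes Ftl1 (4048 ± 530.3 CPM) and Fth1 (3121 ± 319 CPM), which store iron, spread little between kidneys. The androgen-regulated protein gene Kap had 1306 CPM at the lowest, in replicate 4, and 4046 at the highest. Spp1 was among the first 30 by its mean of 2307 CPM, but its SD was 2376 CPM, and its place ran from 9 to 286.5 among the 8 libraries.

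The 8 nephron segment lists, 88 genes of which only Pvalb stayed under 1 CPM, held 3.19% ± 0.502 of all counts, from 2.16% in replicate 4 to 3.79% in the highest library. Shares of lists depend on which genes were listed, so they are compared between kidneys and not between segments. Since these are bulk tissues, fewer cells of a type and less RNA per cell cannot be told apart in any of the following values.

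In the glomerulus, podocyte genes summed to 0.0575% ± 0.00705 of counts. Nphs1 encodes nephrin, a protein of the slit diaphragm. It had a lowest value of 17.8 CPM, in replicate 4, a median of 51.4 and a highest of 80.7 CPM, in replicate 7. Tcf21, a transcription factor of podocytes and stromal cells, was instead highest in replicate 4 (35.5 CPM, against 14.8 to 23.8 in the others). None of the 14 podocyte genes reached a biological CV of 0.5.

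The 14 genes of proximal tubule S1 and S2 summed to 0.945% ± 0.0779, the second steadiest share among the 8 segments relative to its mean, and none was variable. The phosphate transporter Slc34a1 had 2569 CPM at the lowest, 3217 at the median and 3462 at the highest. The endocytic receptor Lrp2 (megalin) had 1322, 1951 and 2938 CPM. Members did not move as a block in replicate 4. There Slc34a1, Lrp2 and the urate transporter Slc22a12 (450 CPM against 649 to 1056) were the lowest of the 8 kidneys, whereas 9 of the 14 were the highest. These included the glucose transporters Slc5a2 (414 CPM against 170.2 to 285) and Slc2a2 (92.4 against 29.4 to 76.1), the bicarbonate transporter Slc4a4 (174 against 55.6 to 107.9) and the amino acid transporter Slc6a19 (71 against 29.8 to 50.9). Over all 13649 genes, 25.7% were highest in replicate 4 and 22.0% were lowest there.

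Relative to its mean, the share of the straight S3 segment spread most of the 8 segments, which rested on replicate 4. Among the other 7 kidneys, distal convoluted and connecting tubule genes, at 0.154% to 0.263%, spread more for their mean. Its 8 genes summed to 0.269% in replicate 4 and to 0.614% to 0.948% in the other 7. Slc7a13 encodes a transporter of aspartate, glutamate and cystine in S3 that pairs with the product of Slc3a1. Slc7a13 had 399 CPM in replicate 4 and 1583 to 3301 CPM elsewhere, and Slc3a1 had 1653 CPM against 3419.6 to 5297. In neither gene did replicate 4 overlap the others, and 7 of the 8 list members were lowest there. Agt, which encodes angiotensinogen, had 45.7 CPM in replicate 4 and 116.5 to 147.2 in the others, and its biological CV fell from 0.259 with all 8 kidneys to 0.0751 without replicate 4. Slc22a13, a transporter of organic anions, was the single variable member, with 1.09 to 24.9 CPM.

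Peptidases of the proximal brush border and glutathione enzymes were also mostly lowest in replicate 4. Mme (neprilysin) had 94.4 CPM in replicate 4 and 231 to 483 in the others. Mep1b, a meprin subunit, had 69.6 against 201 to 290.2 CPM. Of the 10 peptidases, 9 were lowest in replicate 4, and Dpep1 was the exception and highest there (43.6 CPM). Gclc had 1120.1 CPM in replicate 4 and 4460.2 to 7444 elsewhere, and Gclm, the modifier subunit of the same enzyme, had 359 against 961 to 1416 CPM. Catalase (Cat) had 731 against 1033 to 1517 CPM. Within the 17 antioxidant genes 10 were lowest and 4 highest in replicate 4, against 22.0% and 25.7% of all genes. The 4 were Gpx3 (6697 CPM), Gpx1 (716 CPM), Gstm1 (118.0 CPM) and the heme oxygenase gene Hmox1 (19.1 CPM). With all 8 kidneys 2 of the 17 were variable, near the 10.8% of all genes, and without replicate 4 none was (0 of 17, against 7.56% of all genes).

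In the thin limb and inner medulla list the water channel gene Aqp1, which proximal tubule also uses, had 349 to 837 CPM (median 632). The inner medullary urea transporter Slc14a2 was the variable member here. It had 7.99 CPM in replicate 5, a median of 21.9 and 45.3 CPM in replicate 3. Akr1b1, which makes the osmolyte sorbitol, ranged from 18.9 to 69.6 CPM with replicate 4 (69.6) and replicate 3 (67.3) at the top. Without replicate 4 the spread of Slc14a2 was no smaller, with a biological CV of 0.574 against 0.531.

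Thick ascending limb genes summed to 0.802% ± 0.197, with 0.438% in replicate 4 and 0.7002% to 1.05% in the others. Umod, whose product uromodulin is the main protein of normal urine, had 1879 CPM in replicate 4, a median of 4213 and 6019.7 in replicate 8. The sodium-potassium-chloride cotransporter Slc12a1 had 672, 1063 and 1516 CPM, with replicate 4 lowest and replicate 2 highest. The growth factor gene Egf had 422 CPM in replicate 4 and 957 to 1792 in the others. Of the 11 genes 9 were lowest in replicate 4, and the tight junction gene Cldn19 was highest there (61 CPM, with 30.2 to 60.6 in the others).

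Distal convoluted and connecting tubule genes were lowest in replicate 4 in 6 of 10 cases, and the 4 with the most reads were highest in replicate 7. The thiazide-sensitive cotransporter Slc12a3 had 605 CPM in replicate 4, a median of 1092 and 1894 in replicate 7, where the list share was also highest (0.263%). Calb1, a calcium-binding protein, had 165 to 300.3 CPM, and the FGF23 co-receptor gene Kl (klotho) had 119.6 to 232 CPM, and both were lowest in replicate 4 and highest in replicate 7. The calcium channel Trpv5 was highest in replicate 4 (22 CPM against 4.86 to 11.8).

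Collecting duct principal cell genes had the steadiest share of the 8 segments relative to its mean. They summed to 0.129% ± 0.00926. The vasopressin-regulated water channel Aqp2 had 348 to 555 CPM with a median of 409, and Hsd11b2, which shields the mineralocorticoid receptor from glucocorticoids, had 367 to 525 CPM. Replicate 4, at 396 and 396 CPM, lay inside both ranges, and 2 of the 11 genes were lowest there, near the 22.0% of all genes. Elf5 was the variable member (0.904 to 8.23 CPM, highest in replicate 3). In acid-secreting intercalated cells, the proton pump subunit Atp6v1b1 had 169 to 273 CPM and the anion exchanger Slc4a1 197 to 390.3 CPM. Of the 11 intercalated cell genes 9 were lowest in replicate 4. None was variable, but that call cannot be met by a gene low in 1 kidney alone.

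**Figure D2:**
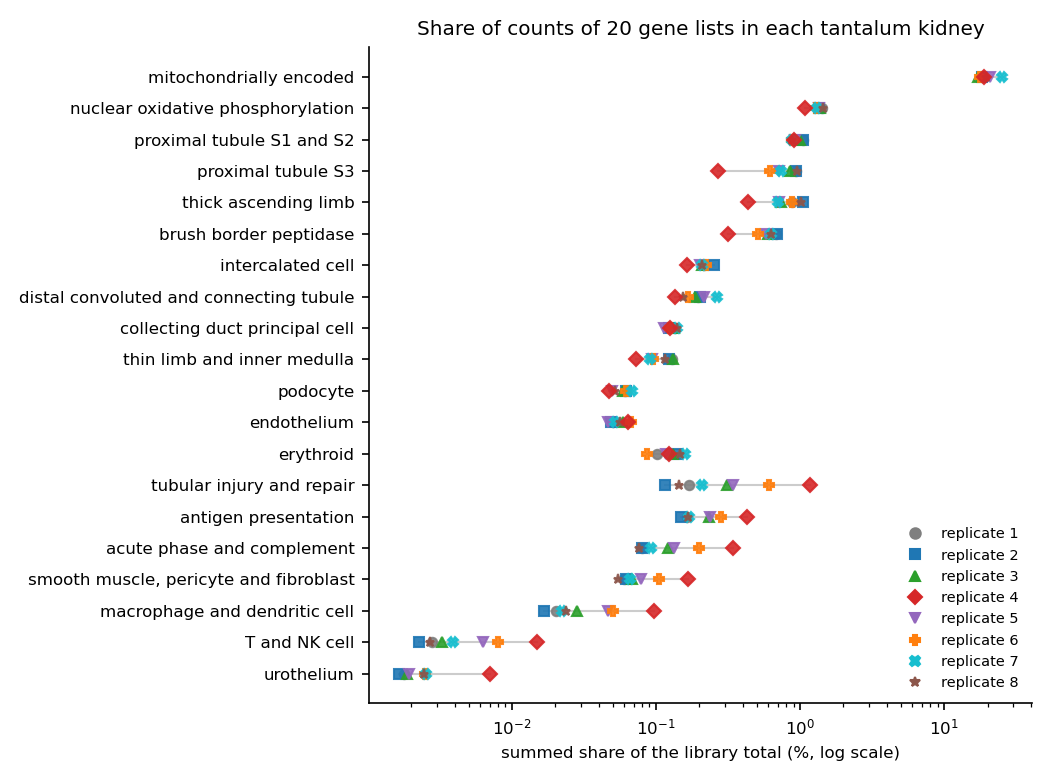
Summed share of the library total (%, log axis) of 20 gene lists in each of the 8 tantalum kidneys, a point per kidney, with a grey line from the lowest to the highest. Replicate 4 is at the left end for S3 (0.269%), thick ascending limb and brush border genes and at the right end for injury (1.17%), complement, fibroblast and immune cell genes, while collecting duct and erythroid lists do not set it apart.

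Outside the tubule, connective tissue and immune genes varied widely. Blood vessel genes spread like the median gene, with a median biological CV of 0.186 against 0.187 over all genes. The 12 endothelial genes summed to 0.0554% ± 0.00745 and none was variable. Of these 12, 6 were highest and 1 lowest in replicate 4, against 25.7% and 22.0% of all genes. Plvap, a protein of fenestrated vessels, had 70.7 to 124.8 CPM. Vwf of larger vessels had 21.7 CPM in replicate 4 and 54.1 to 96 elsewhere, whereas Pecam1 was highest in replicate 4 (66.8 CPM).

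In the stroma, collagen genes were highest in replicate 4. Col3a1 had 62.7 CPM at the lowest, 90 at the median and 393 at the highest, in replicate 4. Col1a1 had 49.5, 81.5 and 238 CPM. Replicate 6 came next for both, with 199 and 159 CPM. The fibroblast receptor Pdgfra had 57.5 CPM in replicate 4 and 19.4 to 28.4 in the others. By contrast Myh11, the smooth muscle myosin, was lowest in replicate 4 (61 CPM, up to 95 elsewhere). In this list 4 of 13 genes were variable with all 8 kidneys and 0 of 12 without replicate 4.

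Every one of the 14 macrophage and dendritic cell genes at 1 CPM or more was variable and every one was highest in replicate 4. Lyz2 (lysozyme) had 56.7 CPM at the lowest, 81.8 at the median and 358 in replicate 4. The complement gene C1qa had 12, 23.5 and 73 CPM, and the growth factor receptor gene Csf1r had 22.7, 32.8 and 98.5 CPM. Replicates 5 and 6 followed replicate 4, with list shares of 0.0461% and 0.0502% against 0.0972%, and the lowest, replicate 2, had 0.0167%. Without replicate 4, 4 of the 14 were still variable. The scavenger receptor gene Cd163 stayed under 1 CPM on average.

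Lymphocyte genes were low everywhere. Cd4, which rat macrophages also express, had 11.5 to 71.5 CPM, and the T cell receptor component Cd3e had 0.878 CPM at the lowest, 1.43 at the median and 9.02 in replicate 4. All 12 T and NK cell genes at 1 CPM or more and all 5 B and plasma cell genes were variable, and 9 of 11 and 3 of 4 without replicate 4; these means are near the level at which counting error is largest. The immunoglobulin gene Igha, not in those lists, had 5.04 to 75.4 CPM. Of the 6 neutrophil markers S100a8, S100a9, Mpo and Camp stayed under 1 CPM on average. The other 2, Ncf1 and Csf3r, were variable and highest in replicate 4, where Ncf1 had 36.7 CPM against 6.17 to 18.1. Without replicate 4 only 1 of them reached 1 CPM, and it was not variable. Red cell genes set no library apart: Hba-a1 had 489 to 1063 CPM, and because globin genes are near-identical copies their separate values are uncertain. The urothelial list was also highest in replicate 4, with a share of 0.00698% against 0.00164% to 0.00251%, and 5 of its 6 genes were highest there. Of the 6, 5 were variable with all 8 kidneys and 3 without replicate 4.

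The median biological CV over 13649 genes was 0.187, with quartiles of 0.122 and 0.314. Only 117 genes reached a biological CV of 1. Without replicate 4 the variable genes numbered 1025, 7.56% of 13557, and 914 genes were variable both ways.

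**Figure D3:**
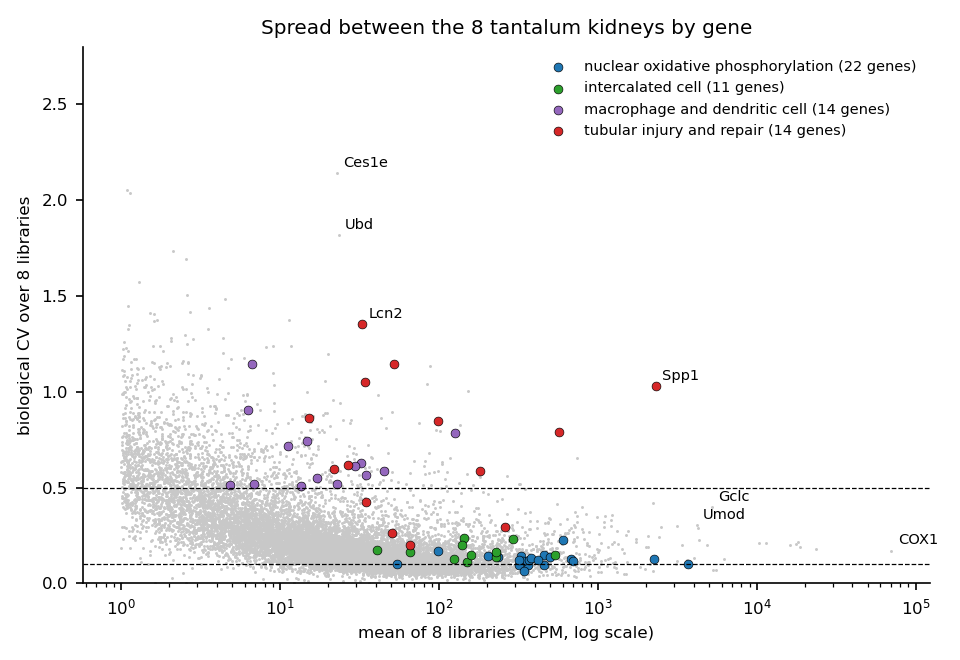
Biological CV over the 8 tantalum kidneys against mean CPM (log axis), a grey point per gene with a mean of at least 1 CPM, 4 gene lists in colour and dashed lines at 0.5 and 0.1. Nuclear oxidative phosphorylation and intercalated cell genes lie under the upper line, all 14 macrophage and dendritic cell genes lie on or above it, and Spp1 has a biological CV of 1.03 at a mean of 2307 CPM.

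The 10 steadiest genes with at least 50 CPM were Copb2, Copa, Cct3, Ddb1, Trpc4ap, Nmt1, Ist1, Mrpl52, G3bp1 and Stt3a. Among them Copb2, a subunit of the coat of Golgi vesicles, had the lowest biological CV at 0.0166 and ran only from 149.1 to 159 CPM. Another coat subunit, Copa, and Cct3, a subunit of the chaperonin that folds actin and tubulin, had 184 to 199.9 and 184 to 197 CPM. Ddb1, a protein of DNA repair and ubiquitin ligases, had 341 to 372 CPM. Of 10 heat shock genes 6 were steady and 1 variable (Hspa1b, with a mean of 4.88 CPM). Of 13 endoplasmic reticulum stress genes 5 were steady, among them Hspa5 (469 to 538 CPM) and Hsp90b1 (511 to 565 CPM), and 1 was variable. Replicate 4, at 530.4 and 561 CPM, lay inside the ranges of Hspa5 and Hsp90b1. The summed shares of both lists were highest in replicate 4, at 0.576% and 0.215%. There 5 of the 10 heat shock genes were highest and 2 lowest. Of the 13 others 6 were highest and 1 lowest, against 25.7% and 22.0% of all genes. Hspb1 had 80.1 CPM in replicate 4 and 25.2 to 53.5 elsewhere, whereas Hspd1 had 482 against 650 to 789 CPM.

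Genes of cell energy supply had narrow spreads but a common ordering. None of the 22 nuclear oxidative phosphorylation genes was variable and 4 were steady, yet 19 of 22 were lowest in replicate 4. Atp5f1a, a subunit of ATP synthase, had 1632 CPM there and 2105 to 2516 elsewhere. Cytochrome c (Cycs) had 309 against 528 to 721 CPM. The mitochondrially encoded subunits did not follow, since 3 of 13 were lowest in replicate 4, near the share over all genes. In fatty acid oxidation 7 of 11 genes were lowest in replicate 4, again against 22.0% of all genes. The gluconeogenic gene Pck1 had 1505 to 2533 CPM without any library standing apart.

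Variable genes were mostly those high in replicate 4. Of the 1473 variable genes 834, or 56.6%, were highest in that kidney, and each other kidney was highest for 41 to 170. Of the 30 most variable genes with at least 5 CPM 27 were highest in replicate 4, and 15 of the 30 remained among the first 30 once it was left out. Among 7022 genes with at least 20 CPM, replicate 4 lay above all other 7 and at least 2-fold above their median in 181 genes and below in the same way in 205 genes. The next library by that count, replicate 2, had 12 and 23 genes.

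In the injury and repair list 10 of 14 genes were variable. Its summed share was 1.17% in replicate 4 and 0.612% in replicate 6, and it was 0.116% in the lowest, replicate 2. Spp1 had 864, 392, 1842, 7470.2, 2079.7, 3983, 1156 and 667 CPM in replicates 1 to 8. Havcr1, whose product appears on injured proximal tubule cells, had 18.5, 4.14, 27.6, 106.8, 25.4, 69.6, 15.8 and 4.82 CPM. Both genes were highest in replicate 4, next in replicate 6 and lowest in replicate 2.

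Lcn2, a siderophore-binding protein, had 5.47 CPM at the lowest, 14.4 at the median and 136.7 in replicate 4. The complement component gene C3 had 11.5, 27.5 and 191 CPM, and clusterin (Clu), an extracellular chaperone, had 242, 434 and 1613 CPM. In all 3 genes replicate 6 ranked next, with 50.7, 72.1 and 694 CPM. The filament gene Vim had 416 CPM in replicate 4 and 103.2 to 257 in the others, and the protease inhibitor gene Timp1 had 44.5 against 4.68 to 22.1 CPM. Krt8, Krt18, Krt19 and Sox9 were not variable. Sox9, a transcription factor of tubule repair, had 55.5 CPM in replicate 4, inside the range of 43.9 to 84.4 of the others, and was the only list member not highest there. Without replicate 4, 7 of the 14 were still variable.

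The promoters of Lcn2, C3 and Havcr1, the 3 most variable members of that list, are shown because all 3 genes were highest in replicate 4 and next in replicate 6. Each is the 250 bases before the annotated transcript start, from RefSeq on build GRCr8, 5′ to 3′ on the strand of the gene. Capitals mark matches on either strand to TTGCNNAA, a core of C/EBP sites, a core of NF-kB sites (GGG and CC with any 5 bases between), or TTCNNNGAA, a core of STAT sites; overlapping matches form a single run. Lcn2 is at chr3:36081781-36082030 on the minus strand, C3 at chr9:2201340-2201589 on the minus strand and Havcr1 at chr10:31629528-31629777 on the plus strand.
Lcn2: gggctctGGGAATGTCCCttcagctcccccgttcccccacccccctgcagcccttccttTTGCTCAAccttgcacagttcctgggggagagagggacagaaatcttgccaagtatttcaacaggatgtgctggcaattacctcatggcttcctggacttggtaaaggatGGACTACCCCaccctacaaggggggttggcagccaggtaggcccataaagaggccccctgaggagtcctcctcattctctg
C3: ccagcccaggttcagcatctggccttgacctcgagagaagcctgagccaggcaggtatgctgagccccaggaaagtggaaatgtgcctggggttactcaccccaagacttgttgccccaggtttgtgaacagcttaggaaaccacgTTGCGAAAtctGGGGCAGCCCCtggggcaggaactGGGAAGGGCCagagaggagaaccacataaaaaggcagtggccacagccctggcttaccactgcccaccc
Havcr1: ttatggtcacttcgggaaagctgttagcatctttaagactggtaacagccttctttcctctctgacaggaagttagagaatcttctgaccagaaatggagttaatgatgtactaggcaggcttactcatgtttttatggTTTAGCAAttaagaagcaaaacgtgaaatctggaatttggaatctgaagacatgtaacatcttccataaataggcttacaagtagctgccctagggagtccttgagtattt
The C/EBP core was found at 1 place in each of the 3 windows, as TTGCTCAA in Lcn2, TTGCGAAA in C3 and TTTAGCAA, read on the other strand, in Havcr1. The NF-kB core had 3 matches each in Lcn2 and C3 and 0 in Havcr1, and the STAT core had 0 in all 3. Over all 27457 promoters of this length the C/EBP core was present in 9.2%, the NF-kB core in 43.52% and the STAT core in 7.52%. Among 591 variable genes highest in replicate 4 that had a promoter in the table the shares were 10.15%, 57.36% and 7.28%, and among all 10643 such genes at 1 CPM or more 7.54%, 60.58% and 5.89%. A match to these letters shows no binding.

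Complement and antigen presentation genes were also mostly highest in replicate 4. All 12 acute phase and complement genes were highest in replicate 4 and 9 were variable, or 7 without replicate 4. C4a had 351 CPM at the lowest, 578 at the median and 1751 at the highest, and the copper carrier Cp (ceruloplasmin) had 38, 60.5 and 286 CPM; C4a and C4b are near-identical, so how reads divide between them is uncertain. Serping1, the inhibitor of the first complement proteases, had 229 to 328 CPM. Of 14 antigen presentation genes 12 were highest in replicate 4, and 2 were variable, or 7 when raw library totals replaced TMM scaling and 0 without replicate 4. Cd74, the invariant chain of class II molecules, had 508, 715 and 1487 CPM. Of 17 interferon response genes 8 were highest in replicate 4. With all 8 kidneys 3 of the 17 were variable (5 with raw totals), and without replicate 4 3 of 16, against 10.8% and 7.56% of all genes. Mx2 was highest in replicate 3 (87.9 CPM) and had 26.5 CPM in replicate 4.

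**Figure D4:**
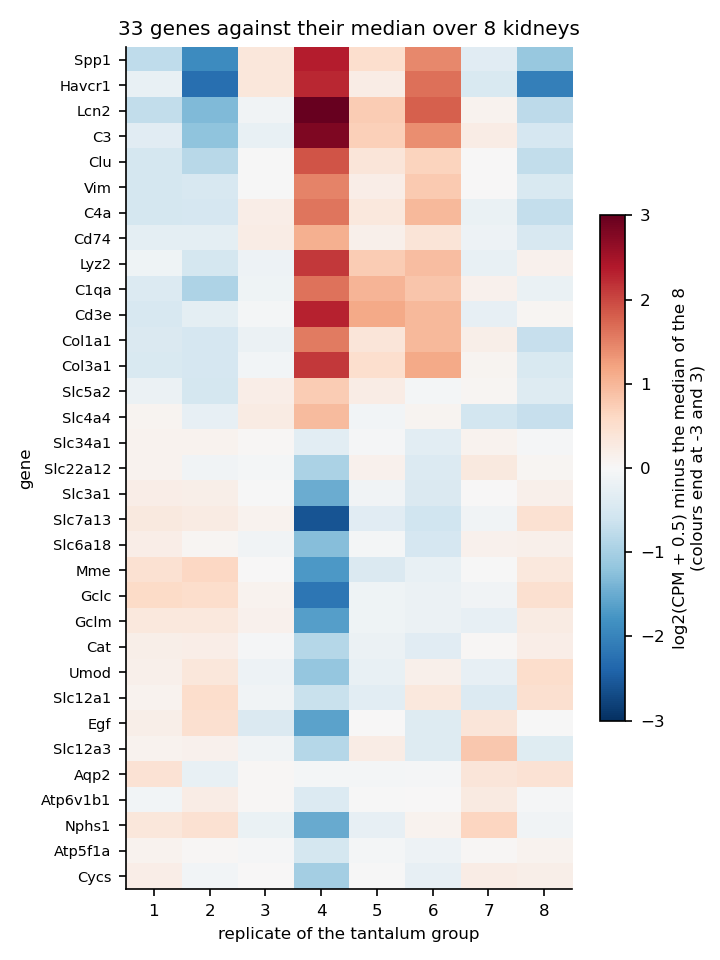
log2(CPM + 0.5) minus the median over the 8 tantalum kidneys for 33 genes (rows) in replicates 1 to 8 (columns), red above and blue below the median. Column 4 is red in the injury, complement, macrophage and collagen rows at the top and blue in most transporter and enzyme rows, column 6 is red in the same upper rows, and Aqp2 is close to its median there (396 CPM in replicate 4).

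Outside the lists, the genes with at least 20 CPM that lay farthest below the others in replicate 4 included further proximal tubule products, named here after their values were seen. The dipeptidase gene Cndp1 had 29.2 CPM there and 151 to 264 elsewhere. Slco1a1, a transporter of organic anions, had 51.8 against 148.7 to 395 CPM, and Hnmt, which inactivates histamine, had 90 against 268 to 526 CPM. Among those farthest above were Ubd, a ubiquitin-like protein, at 124.6 CPM, the complement component C7 at 519 CPM (56.1 to 182 elsewhere) and Gpnmb at 72 CPM (3.85 to 36.1 elsewhere). Fibronectin (Fn1) also lay above, with 282 against 42.8 to 151 CPM.

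Proliferation genes were low and mostly highest in replicate 4. Mki67, a marker of dividing cells, had 1.62 CPM in replicate 7, a median of 6.79 and 21 in replicate 4, and 7 of 10 cell cycle genes were variable, or 4 of 9 without replicate 4. Pcna, which also serves DNA repair, had 37.2 to 47.1 CPM and was steady. Metallothioneins, which bind metals, were not variable: Mt1 had 294 to 519 CPM and Mt2A 352 to 667 CPM, with the caution that their sequences are close. Cyp27b1, which activates vitamin D, had 0.58 to 2.71 CPM in 7 kidneys and 12.1 in replicate 4, whereas Cyp24a1, which degrades it, had 72.2 to 208 CPM and was highest in replicate 1.

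Some genes fell into separate high and low levels. A search made after seeing the data asked for genes with a mean of at least 2 CPM whose sorted values left a gap of at least 4-fold with 2 or more kidneys on each side; 6 of 12710 genes, 0.0472%, had such a gap. Ly6al, of a family of near-identical surface proteins, had 235, 137.5, 155 and 112.5 CPM in replicates 1, 2, 5 and 7 and 14, 6.67, 6.37 and 8.88 CPM in replicates 3, 4, 6 and 8. Ephx2, the soluble epoxide hydrolase, had 69.3, 86.3, 84.7 and 86.1 CPM in replicates 4 to 7 and 13.9, 10.7, 9.03 and 12.4 CPM in replicates 1, 2, 3 and 8. Both genes thus split the 8 kidneys 4 to 4, but along different lines. Resp18 had 2.11 and 1.08 CPM in replicates 3 and 6 and 17.2 to 64 CPM in the other 6. Ubd had 0 CPM in replicates 1 and 2, under 1 CPM in replicates 6 and 7, and 6.72 to 124.6 CPM in replicates 3, 4, 5 and 8. The other two carry provisional symbols.

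Single kidneys other than replicate 4 also held outlying genes. Ces1e, a carboxylesterase with near-identical relatives, had the highest biological CV of all named genes, 2.14, because of replicate 7 alone (144.3 CPM, against 3.16 to 9.24 in the other 7). Replicate 7 was also highest for Cyp2c11, best known as a male-specific liver enzyme, with 106.9 CPM, followed by 92.2 in replicate 2 and down to 7.38 in replicate 4. Replicate 2 was highest for Irs2, an adaptor of insulin signalling, with 222 CPM against 28.6 to 85.9 in the others, and for the tissue kallikrein gene Klk1c4 with 65.5 CPM against 3.37 to 24.2.

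**Figure D5:**
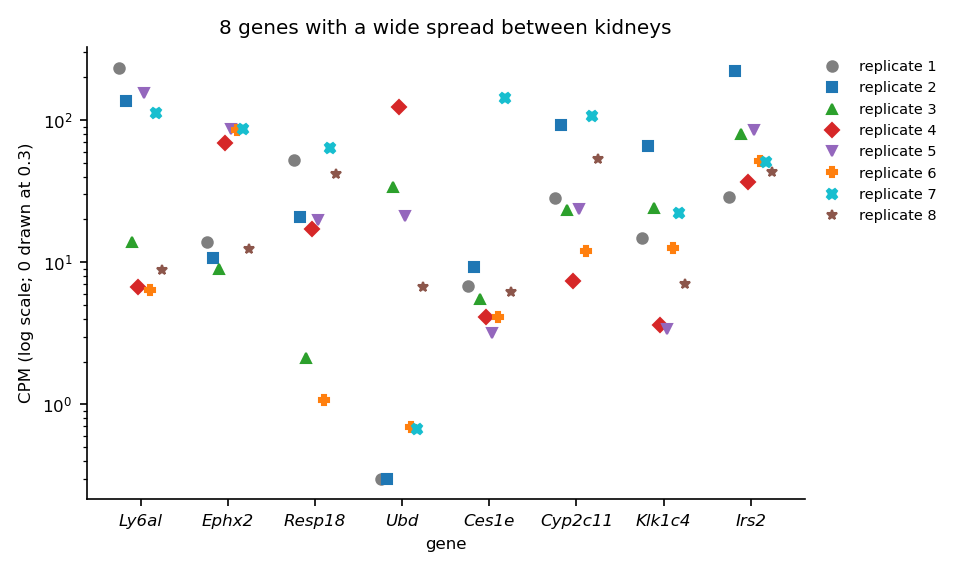
CPM (log axis, 0 drawn at 0.3) of 8 genes in the 8 tantalum kidneys, a marker per kidney. Ly6al and Ephx2 split the kidneys 4 to 4 along different lines, Resp18 is low in replicates 3 and 6, and Ces1e is high in replicate 7 alone (144.3 CPM).

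Clock genes varied moderately, and none of 15 reached a biological CV of 0.5. Dbp, an output gene of the clock, had 32.3 to 75.3 CPM and was highest in replicates 3 (75.3 CPM) and 5 (64.2 CPM). Arntl, its activator, had 19.6 CPM in replicate 3 and up to 45.6, in replicate 1. Per1 had 44.7 to 122.8 CPM. Among immediate early genes, Fos had 20.4 CPM in replicate 8 and 32.9 to 51.6 in the others. Egr1 had 48.4 to 127.4 CPM with the lowest value in the same kidney. Both were highest in replicate 4, as were 8 of the 14 such genes, against 25.7% of all genes. Of the 14 genes 4 were variable, among them Atf3 (1.16 to 12.1 CPM), and 3 without replicate 4, against 10.8% and 7.56% of all genes.

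Whether genes moved together across the 8 kidneys was tested for 20 gene pairs on log2(CPM + 0.5), by two-sided exact permutation tests with Benjamini-Hochberg adjustment over the 20 pairs. At an adjusted p of 0.05, 12 pairs passed by Pearson's r and 6 by Spearman's rho. In the thick ascending limb, Umod and Slc12a1 had r = 0.912 (exact p = 0.000124, adjusted 0.00124) and rho = 0.976 (exact p = 0.000397, adjusted 0.00794). Leaving out the 2 kidneys farthest from the median of Umod gave r = 0.965, and leaving out replicate 4 gave 0.948. Havcr1 and Spp1 had r = 0.967 (exact p = 0.000198, adjusted 0.00132) and rho = 0.952 (exact p = 0.00114, adjusted 0.0112), with r = 0.924 without the 2 farthest kidneys. Both injury genes thus still moved together among the remaining 6 kidneys.

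Among matrix and immune genes, Col1a1 and Col3a1 had r = 0.985 (exact p = 9.92e-05, adjusted 0.00124) and rho = 0.929 (exact p = 0.00223), and 0.953 without the 2 farthest. Cd68 and C1qa had r = 0.963 (exact p = 0.000595, adjusted 0.00298) and rho = 0.881 (exact p = 0.00724), and 0.892 without the 2 farthest. Across the 2 classes, Col1a1 and Cd68 had r = 0.847 (exact p = 0.00729, adjusted 0.0208) and rho = 0.738 (exact p = 0.0458, adjusted 0.102), and r was 0.532 without the 2 farthest.

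Several tubule pairs did not pass by both measures. Slc34a1 of S1 and S2 and Slc7a13 of S3 had r = 0.77 (exact p = 0.0157, adjusted 0.0315) and rho = 0.50 (exact p = 0.216), but r fell to 0.0831 without replicates 4 and 6, so the relation rests on those kidneys. Slc34a1 and Slc5a2, both of early proximal tubule, had r = -0.535 (exact p = 0.184, adjusted 0.245) and rho = -0.357 (exact p = 0.389) and did not pass. Umod and Aqp2 had r = 0.269 (exact p = 0.562, adjusted 0.592) and rho = 0.214 (exact p = 0.619). In the collecting duct Aqp2 and Aqp3 had r = 0.61 (exact p = 0.1003, adjusted 0.154) and rho = 0.81 (exact p = 0.0218, adjusted 0.0622). The clock pair Dbp and Per3 had r = 0.832 (exact p = 0.015, adjusted 0.0315) and rho = 0.929 (exact p = 0.00223, adjusted 0.0112) and passed by both. The clock pair Dbp and Arntl had r = -0.771 (exact p = 0.0202, adjusted 0.0366) and rho = -0.476 (exact p = 0.243), and r was -0.355 without the 2 farthest kidneys and -0.93 without replicate 4. With 8 kidneys, pairs that did not pass may still be related.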

How the data were processed

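Kidney RNA of 8 rats with a tantalum pellet was sequenced as bulk libraries. The authors deposited raw counts for each gene. Their reads were mapped to mRatBN7.2 by STAR 2.7.2a and assigned to genes by featureCounts (Subread 1.6.4), per the submitters' processing notes. The annotation, the strand setting and the handling of multimapping reads are not given in the sources used here, so genes with near-identical copies or an overlapping partner are uncertain. A further 29 lines of the table hold no gene name and were dropped (at most 0.043% of a library's counts), among them the remains of 5 very long genes. Among 28 pairs of libraries the smallest chi-square, divided by its degrees of freedom, was 19.26, so no library was a copy of another.

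CPM were computed from library totals scaled by TMM factors of edgeR 4.0.16 (R 4.3.3). The biological CV is the square root of the squared CV of CPM less the inverse of the mean count, for genes with a mean of at least 1 CPM. There is 1 group, so no contrast was tested. The 20 gene pairs were tested with numpy 2.4.6 and scipy 1.17.1, and Dixon's criterion was used to list single outlying kidneys. Each p-value is the share of all pairings of the 8 kidneys that gave a correlation at least as strong, in either direction. The biological CV has no p-value. No gene length was used, so values per length, planned as an alternative and as part of the naming rule, are not analysed here. On data simulated for these 8 libraries (13651 genes), the spread script called 98.0% of genes made with a CV of 1, 91.0% with 0.8 and 0.0% with 0.15 variable.

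Genes were named by a rule: the 30 highest by mean CPM, the 30 with the highest biological CV among those with at least 5 CPM and no provisional symbol, the 10 steadiest with at least 50 CPM, the 3 highest and 3 most variable members of each of 44 gene lists, and the members of the gene pairs. Other genes given as examples were chosen after their values were seen. Some genes that the rule names are not reported here. The group, the lists and the rule were chosen with earlier results of these data known. Promoter sequences were matched by symbol in a RefSeq table of build GRCr8, which held 10643 of the 13649 genes. Alternatives were raw totals, DESeq2 1.42.0 size factors, upper quartile factors, other filters, dispersions of edgeR and DESeq2, a median absolute deviation, totals without mitochondrially encoded genes, and leaving out each library.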

Additional observations from a re-analysis of the deposited data

Results flagged for a closer look

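In some measures a single kidney lay far from the other 7. The number in brackets is the gap between the most extreme kidney and its nearest neighbour, divided by the whole range of the 8, and all values above the 95% critical value of Dixon's test for 8 samples are listed. For normally distributed values chance alone passes about 1 in 20 such sets. CPM and shares were not logged here, so that rate may not hold for them. Many of the genes were also named for their spread or after their values were seen, so their count cannot be read against that share. Of the 117 genes with values in the report 38 passed, of 42 list shares 12 and of 7 measures of the libraries 5, and many of these measures are not independent of each other.

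Replicate 4 had the lowest correlation with the mean of the others (0.6448). Its shares of counts were highest for smooth muscle, pericyte and fibroblast genes (0.549), macrophage and dendritic cell genes (0.584), T and NK cell genes (0.5526), B and plasma cell genes (0.5739) and neutrophil genes (0.652). The same held for urothelial genes (0.8376), injury and repair genes (0.5305) and acute phase and complement genes (0.5301). Its share of nuclear oxidative phosphorylation genes was lowest (0.5948). Among injury, complement and immune genes it was highest for C3 (0.6629), C7 (0.7288), Cd3e (0.6509), Cd4 (0.6625), Cd74 (0.5672), Clu (0.6698), Cp (0.5961), Gpnmb (0.5268), Igha (0.7064), Lcn2 (0.6549), Lyz2 (0.674) and Ubd (0.7282). Among matrix and stromal genes it was highest for Col3a1 (0.5861), Fn1 (0.5476), Pdgfra (0.762) and Timp1 (0.5616). Tubular and other genes highest there were Cyp27b1 (0.8144), Gstm1 (0.6637), Hmox1 (0.5674), Slc4a4 (0.5594), Slc5a2 (0.528), Tcf21 (0.5665) and Trpv5 (0.5975). Genes lowest there were Agt (0.6975), Atp5f1a (0.5353), Cycs (0.5334), Gclc (0.5281), Gclm (0.5692) and Mep1b (0.5944).

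Replicate 7 had the highest share of mitochondrially encoded genes (0.5468) and of counts in the first 10 (0.5558) and the first 100 genes (0.5722), and it was highest for COX1 (0.5457), COX3 (0.5741), CYTB (0.6972), Ces1e (0.9569) and Hsd11b2 (0.5732). Replicate 2 was highest for Irs2 (0.7035) and Klk1c4 (0.6653) and for the share of fat cell genes (0.5516). Replicate 3 had the lowest Adipoq (0.6859) and the highest Elf5 (0.6482). Replicate 6 had the highest share of cholesterol synthesis genes (0.6584), and replicate 1 had the highest total count (0.5262). The cause of these differences was not tested.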

How the results depend on the processing

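Most values kept their direction and size. Leaving mitochondrially encoded genes out of the total changed the shares of the first 1, 10, 100 and 1000 genes to 0.809%, 5.77%, 20.4% and 52.4%, the number of genes holding 50% to 880.5 and the share of the 8 segment lists to 3.97%. The count of variable genes depended on the setting: it was 5738 with no filter, 392 with a mean of at least 5 CPM, 594 with edgeR's tagwise dispersion, 933 with DESeq2's gene-wise dispersion and 117 at a threshold of 1, and 1025 to 1602 when each library was left out in turn. Steady genes numbered 0 with edgeR's tagwise dispersion, which is drawn towards a common value, and 3559 with the median absolute deviation. With a mean of at least 5 CPM 85.97% of the variable genes were highest in replicate 4. Gene pairs that passed numbered 6 to 11 without single libraries. Values per length were not run. No paired analysis was possible because all 8 libraries belong to a single group. Depth limits mainly genes near 1 CPM, such as the lymphocyte genes.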
